A study of Mus musculus with 4 samples.

Results

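The ISWI (imitation switch) genes described here are the ATPase genes Smarca1 and Smarca5 and 8 genes for accessory subunits: Bptf, Hmgxb4, Cecr2, Rsf1, Baz1a, Baz1b, Baz2a and Baz2b. They were chosen by name, as rows of a table of 24594 genes, and all 10 were found and passed the filter on low counts, as did 13840 genes in all. The cells were mouse embryonic stem cells (ESCs) from a line with the 129S6/SvEvTac background, and their poly(A) RNA was sequenced in 4 libraries, 2 of wild-type (WT) and 2 of Snf2l knock-out cells. Snf2l is the gene Smarca1. All libraries came from untreated cells, grown with serum and leukaemia inhibitory factor. The knock-out was made in the WT background with CRISPR–Cas9. The labels name no second clone, so genotype and clone cannot be told apart. Replicates are separate libraries of a genotype, and where they came from the same culture the p-values measure only the spread between those libraries.

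ISWI remodelers use the energy of ATP to slide and space nucleosomes. Each complex joins an ATPase, SNF2L (gene Smarca1) or SNF2H (gene Smarca5), to an accessory subunit that helps to set where the complex acts. BPTF is the large subunit of NURF, and HMGXB4 is an HMG-box protein found with NURF. CECR2 defines CERF, RSF1 defines RSF, ACF1 (gene Baz1a) defines ACF and CHRAC, WSTF (gene Baz1b) defines WICH, and TIP5 (gene Baz2a) defines NoRC, a complex known for silencing ribosomal DNA. BAZ2B is the paralogue of TIP5. In ESCs SNF2H is known for its part in the binding of the insulator protein CTCF. The comparison of genotypes asks how the other ISWI transcripts stand in cells that lack SNF2L.

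The ATPase genes are related in sequence, and their coding sequences are shown first because their levels are compared below. In the GENCODE vM21 annotation of GRCm38 the coding sequence of Smarca1 has 1062 codons and that of Smarca5 has 1051. Over 3131 aligned bases they were 73.8% identical, and the longest run of identical bases was 21. The windows around this run cross the junction of exons 7 and 8 of 24 in both genes. They lie within chrX:47875276-47876425 for Smarca1 and chr8:80726102-80726251 for Smarca5, both on the minus strand. Capitals mark the 10 bases of the window at which the genes differ, with 20 bases of coding sequence on either side of the shared run.
Smarca1: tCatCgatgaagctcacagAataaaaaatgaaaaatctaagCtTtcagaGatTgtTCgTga
Smarca5: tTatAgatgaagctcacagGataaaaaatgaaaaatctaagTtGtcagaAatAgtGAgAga
No run of 50 identical bases was found between any of the 10 genes, so a read of that length or longer that matches exactly can be placed on 1 of them. Smarca5 has another limit. Of its 50-base words, 28.2% also occur in other annotated genes, chiefly in processed copies on chromosome 4. The copies Smarca5-ps and Gm13034 are in the count table, and their counts summed over libraries came to 1.82% and 1.01% of those of Smarca5. These counts do not show how many Smarca5 reads matched several places and were left out or placed elsewhere. The effect of such reads on the level of Smarca5 was not tested.

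The start regions of the ATPase genes differ in their density of the dinucleotide CG, at which DNA methylation acts. RefSeq (GRCm38.p6) holds a promoter entry for 7 of the 10 genes. The 250 bases before the start site are shown for the ATPases, with each CG in capitals. CG reads the same on both strands.
Smarca1, chrX:47892614-47892863: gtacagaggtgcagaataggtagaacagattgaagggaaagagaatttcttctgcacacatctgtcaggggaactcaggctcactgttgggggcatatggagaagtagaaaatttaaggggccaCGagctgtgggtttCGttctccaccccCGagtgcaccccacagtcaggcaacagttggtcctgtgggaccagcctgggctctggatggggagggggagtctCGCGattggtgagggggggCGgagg
Smarca5, chr8:80739460-80739709: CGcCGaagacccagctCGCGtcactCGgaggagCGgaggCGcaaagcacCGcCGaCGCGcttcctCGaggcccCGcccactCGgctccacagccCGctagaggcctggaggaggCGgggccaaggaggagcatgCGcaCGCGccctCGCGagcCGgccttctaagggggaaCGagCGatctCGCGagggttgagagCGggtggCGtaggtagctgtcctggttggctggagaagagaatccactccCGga
The Smarca1 window holds 6 CG, which is the median of the 32817 promoters in the RefSeq table, and the Smarca5 window holds 29. The ratio of observed to expected CG was 0.330 for Smarca1 and 0.974 for Smarca5, where 33.9% of all promoters exceed 0.6. Among accessory genes the windows of Bptf, Baz1b, Baz2a and the first start of Hmgxb4 held between 18 and 34 CG. That of Baz2b held 4 and that of the second Hmgxb4 start held 1. The start sites of Baz2a and Baz2b, and this second start of Hmgxb4, lie inside the gene. These counts describe sequence only, since neither methylation nor factor binding was measured in these libraries.

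The libraries held between 13771642 and 15608803 counts. All 10 ESC markers on the list (Pou5f1, Sox2, Nanog, Zfp42, Esrrb and others) were tested, and their summed level was 5058 to 5326 CPM in WT and 5520 to 5588 CPM in the knock-out, with 1 called higher and 1 called lower. CPM are counts scaled to library size with TMM factors. Markers of other lineages were far lower. The 4 primitive endoderm markers summed to 6.13 to 7.13 CPM in WT and 10.5 to 12.0 CPM in the knock-out, with 2 called higher. The 4 trophoblast markers, with Elf5 at the floor of 3 counts or fewer, summed to 16.8 CPM in each WT library and 31.7 to 32.8 CPM in the knock-out, with 1 called higher. The 3 neural markers summed to 72.0 to 72.6 CPM and 35.4 to 35.5 CPM, with 3 called lower. The 5 fibroblast markers, with Dcn at the floor, summed to 10.8 to 13.1 CPM and 23.1 CPM, with 1 called higher. The 3 mesoderm markers, with Mesp1 at the floor, summed to at most 1.18 and 1.43 CPM. The ESC, primitive endoderm, trophoblast, neural and fibroblast sums did not overlap between genotypes. With 2 libraries each, the smallest exact two-sided permutation p for such a separation is 0.333. Of all tested genes, 5.21% were called lower and 4% higher, and 25.3% had CPM ranges apart in the lower direction. The part of these marker differences in the results below was not tested.

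To ask how abundant each subunit's transcript was in unperturbed cells, levels were set per kb of the gene length in the table. Smarca5 was the most abundant of the 10 genes in WT, at 64.0 and 58.9 CPM per kb, and stood above 93.4% of all genes tested. Baz2a followed at 48.6 and 41.5 CPM per kb, Hmgxb4 at 41.2 and 41.8, Baz1b at 25.6 and 23.5, and Bptf at 25.2 and 20.8. The lower group began with Cecr2 at 11.4 and 9.96 CPM per kb. Baz1a (8.90 and 7.97), Rsf1 (8.38 and 6.50) and Smarca1 (7.44 and 6.68) were close together, each standing above 54.5% to 58.4% of tested genes. Baz2b was lowest, at 1.79 and 1.48 CPM per kb, with 26.5% of tested genes below it.

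Not every step in this order was larger than the spread between the WT libraries. The library ranges were apart between Smarca5 and Baz2a, Hmgxb4 and Baz1b, Bptf and Cecr2, Cecr2 and Baz1a, and Smarca1 and Baz2b. The ranges overlapped between Baz2a and Hmgxb4, Baz1b and Bptf, Baz1a and Rsf1, and Rsf1 and Smarca1. With the length of the longest RefSeq transcript in place of the table's gene length, Rsf1 and Smarca1 exchanged places and the other 8 kept theirs.

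**Figure D1:**
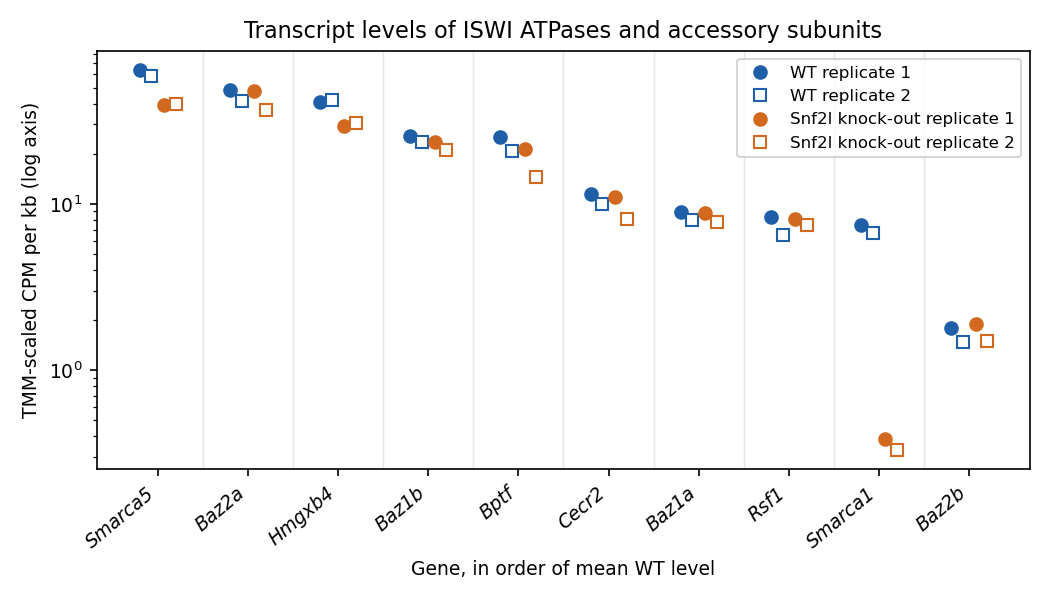
TMM-scaled CPM per kb of gene length (log axis) of the 10 ISWI genes in each WT and Snf2l knock-out library, ordered by mean WT level. Smarca5 is highest in WT at 64.0 and 58.9 CPM per kb, the knock-out points of Smarca1, Smarca5 and Hmgxb4 lie below both WT points, and the points of the other 7 genes overlap between genotypes.

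Within WT the ATPase transcripts were strongly unequal, whereas accessory transcripts were spread over several complexes. Smarca1 made up 10.4% and 10.2% of the summed ATPase level per kb. Among the summed accessory level, Baz2a held 28.4% and 27.0%, Hmgxb4 24.1% and 27.2%, Baz1b 15.0% and 15.3%, and Bptf 14.7% and 13.6%. Each of Cecr2, Rsf1, Baz1a and Baz2b held between 0.961% and 6.69%. The summed ATPase level was 0.418 and 0.427 of the summed accessory level. These are ratios of transcript, and protein was not measured in these files.

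The targeted gene was low in both knock-out libraries. Smarca1 (Entrez gene 93761, chrX:47809370-47892613) had 45.5 and 40.8 CPM in WT and 2.36 and 2.02 CPM in the knock-out. The groups were far apart, with a log2 fold change of -4.30 ± 0.159 (SE, n = 2 per genotype). Its adjusted p in the quasi-likelihood test of edgeR was 2.65e-10. The remaining 37 and 31 counts are above the floor of 3 counts. A count per gene does not show from which exons they came.

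Of the 10 ISWI genes, 3 were lower in the knock-out at an adjusted p under 0.05 and 0 were higher, beside 9.21% of all tested genes called in either direction. Over all tested genes 5.21% were called lower and 4% higher. The 3 genes were Smarca1, Smarca5 and Hmgxb4. Smarca1 alone passed the study's threshold for a differentially expressed gene, an adjusted p under 0.01 with more than 2-fold change, which 0.99% of tested genes passed. The median log2 fold change of the 10 genes was -0.15, against 0.00 for all tested genes. Ranges of CPM were apart between genotypes for the same 3 genes, all lower, beside 25.3% of tested genes apart in that direction.

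Smarca5, the other ATPase gene (chr8:80699943-80739459), was lower in the knock-out. It lies on a chromosome whose tested genes had a median log2 fold change of -0.51, as described below. Smarca5 had 498 and 458 CPM in WT and 307 and 309 CPM in the knock-out, so that both knock-out libraries lay below both WT libraries. The log2 fold change was -0.63 (95% interval -0.82 to -0.45, edgeR adjusted p = 2.92e-04). Its processed copies did not move with it in a way that passed the test, at 0.10 for Smarca5-ps (adjusted p = 0.790) and -0.14 for Gm13034 (adjusted p = 0.762). In bulk RNA, fewer cells with a transcript and less of the transcript per cell cannot be told apart.

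Hmgxb4 (chr8:74993650-75031978), the NURF-associated HMG-box gene, was the accessory gene that passed the test. It had 215 and 219 CPM in WT and 152 and 159 CPM in the knock-out. The groups did not overlap and the libraries of each genotype were close. The log2 fold change was -0.48 (95% interval -0.66 to -0.29, edgeR adjusted p = 2.53e-03).

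Smarca5 and Hmgxb4 both lie on chromosome 8, 5.67 Mb apart, and the genes of this chromosome were lower as a whole. The median log2 fold change of its 753 tested genes was -0.51, and 60.2% of them were called lower. Among these genes 24.4% had a lower fold change than Smarca5 and 55.1% a lower one than Hmgxb4. With the chromosome median entered as an offset, Smarca5 was at -0.13 (95% interval -0.31 to 0.05, edgeR adjusted p = 0.452) and Hmgxb4 at 0.03 (95% interval -0.15 to 0.22, edgeR adjusted p = 0.890). Neither differed from its chromosome beyond the spread between libraries, and under this offset Smarca1 alone of the 10 genes was called, beside 4.78% of all tested genes in either direction and 1.57% lower. Neighbouring genes were of similar size. The 5 tested genes on either side of Smarca5 ranged from -1.09 to -0.34, with 10 of 10 called lower, and those around Hmgxb4 ranged from -0.79 to -0.16, with 7 of 10 called lower. Why the chromosome as a whole was lower was not tested.

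**Figure D2:**
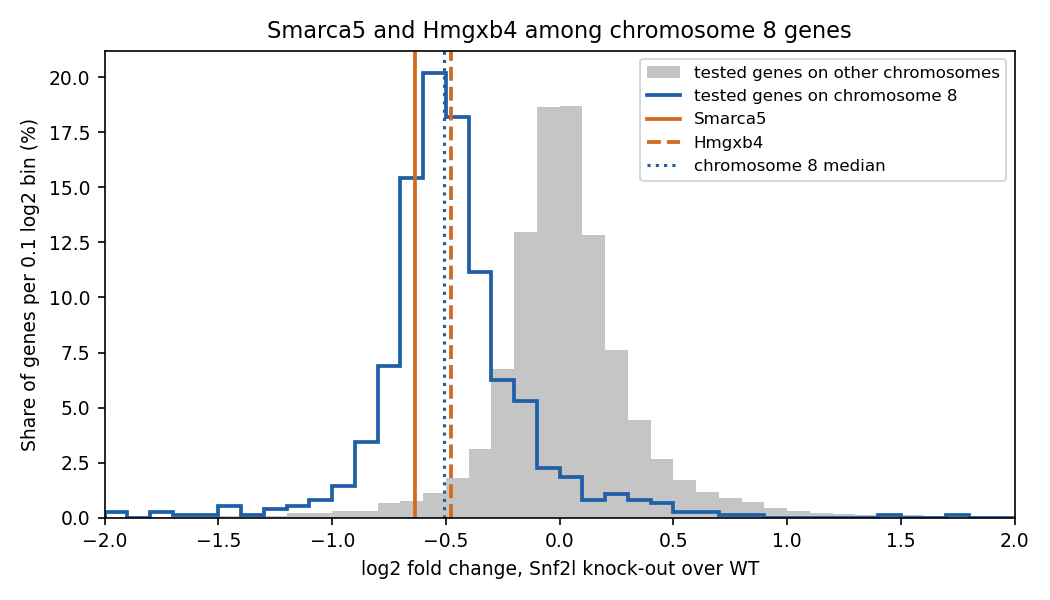
Distribution of log2 fold changes (Snf2l knock-out over WT) in bins of 0.1, as percent of genes, for 753 tested chromosome 8 genes (blue outline) and for 13087 tested genes elsewhere (grey), with 30 of the latter outside the axis. Smarca5 (-0.63) and Hmgxb4 (-0.48) lie on either side of the chromosome 8 median of -0.51.

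Together the ATPase transcripts were lower. Summed CPM per kb of Smarca1 and Smarca5 was 71.4 and 65.6 in WT and 39.9 and 40.03 in the knock-out, a fall of 41.7% in the mean. The groups did not overlap, but with 2 libraries each the exact two-sided permutation p was 0.333, the smallest this design allows. By mean, Smarca5 went from 61.4 to 39.6 CPM per kb and the targeted Smarca1 from 7.06 to 0.358. Against the chromosome 8 median Smarca5 was not called (-0.13, edgeR adjusted p = 0.452), and the sum carries no such offset. In the knock-out Smarca1 made up 0.967% and 0.824% of the ATPase sum. The ATPase sum relative to the accessory sum was 0.263 and 0.314 in the knock-out. In the order of levels Baz2a then stood above Smarca5 by mean, at 47.8 and 36.7 against 39.5 and 39.7 CPM per kb, with overlapping ranges, and Smarca1 stood below Baz2b.

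The remaining 7 accessory genes did not pass the test, and all of them had overlapping ranges between genotypes. BPTF carries the bromodomain and PHD finger with which NURF reads histone tails, and its gene came nearest. Bptf (chr11:107033081-107132147) had 354 and 293 CPM in WT and 299 and 205 CPM in the knock-out. Replicate 2 of the knock-out was the lowest library, while replicate 1 of the knock-out lay between the WT libraries. The log2 fold change was -0.36 (95% interval -0.66 to -0.06, unadjusted p = 0.0218 and adjusted p = 0.139 in edgeR). Without knock-out replicate 2 it was -0.11 and without knock-out replicate 1 it was -0.66, so the value rests on which knock-out library is used. Each of these fits leaves 1 knock-out library and cannot measure the spread within the knock-out. The log2 fold change of Bptf was -0.22 without WT replicate 1 and -0.49 without WT replicate 2.

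Cecr2 (chr6:120666314-120771191), whose product is the bromodomain subunit of CERF, had the same arrangement of libraries. It had 152 and 133 CPM in WT and 145 and 107 CPM in the knock-out. The log2 fold change was -0.17 (95% interval -0.44 to 0.10, edgeR adjusted p = 0.472). Without knock-out replicate 1 it was -0.40, and without knock-out replicate 2 it was 0.03.

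The NoRC gene Baz2a (chr10:128091370-128129303) had 521 and 446 CPM in WT and 512 and 394 CPM in the knock-out. Here too replicate 2 was lower than replicate 1 in each genotype. The log2 fold change was -0.09 (95% interval -0.34 to 0.15, edgeR adjusted p = 0.701). It lay at -0.29 without knock-out replicate 1 and at 0.08 without knock-out replicate 2.

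Baz1b (chr5:135187323-135246131), the gene of the WICH subunit WSTF, had 277 and 254 CPM in WT and 256 and 228 CPM in the knock-out. Its log2 fold change was -0.13 (95% interval -0.33 to 0.06, edgeR adjusted p = 0.445). The knock-out libraries lay below the WT libraries except that knock-out replicate 1 was just above WT replicate 2.

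The least displaced genes were Baz1a, Rsf1 and Baz2b. Baz1a (chr12:54892989-55014371), the ACF and CHRAC gene, had 63.7 and 57.1 CPM in WT and 62.9 and 55.3 CPM in the knock-out, a log2 fold change of -0.03 (95% interval -0.25 to 0.19). Rsf1 (chr7:97579870-97692782), whose product is the histone-binding subunit of RSF, had 106 and 82.1 CPM in WT and 102 and 93.6 CPM in the knock-out, a log2 fold change of 0.06 (95% interval -0.19 to 0.30). Baz2b (chr2:59899363-60209913) had 29.8 and 24.6 CPM in WT and 31.3 and 25.1 CPM in the knock-out, a log2 fold change of 0.06 (95% interval -0.23 to 0.34). For these 3 genes edgeR adjusted p-values were between 0.826 and 0.907. As ratios of knock-out to WT, the intervals of the 7 genes reached from 0.632 (Bptf) to 1.27 (Baz2b). The interval of Bptf lay below 1 (0.632 to 0.959) although its adjusted p did not pass, and those of the other 6 genes included 1.

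The make-up of the accessory pool was described as each gene's share of the summed accessory level per kb. That sum was 171 and 154 CPM per kb in WT and 152 and 128 CPM per kb in the knock-out. Baz2a held 31.5% and 28.8% of it in the knock-out, Hmgxb4 19.3% and 23.9%, Baz1b 15.6% and 16.6%, and Bptf 14.0% and 11.4%. The share of Hmgxb4 was below WT in both knock-out libraries, while those of Baz2a, Baz1b, Baz1a, Rsf1 and Baz2b were above it and those of Bptf and Cecr2 overlapped. Shares of a fixed sum move against each other, and no share could pass a test at 2 libraries per genotype, where the smallest exact permutation p is 0.333.

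**Figure D3:**
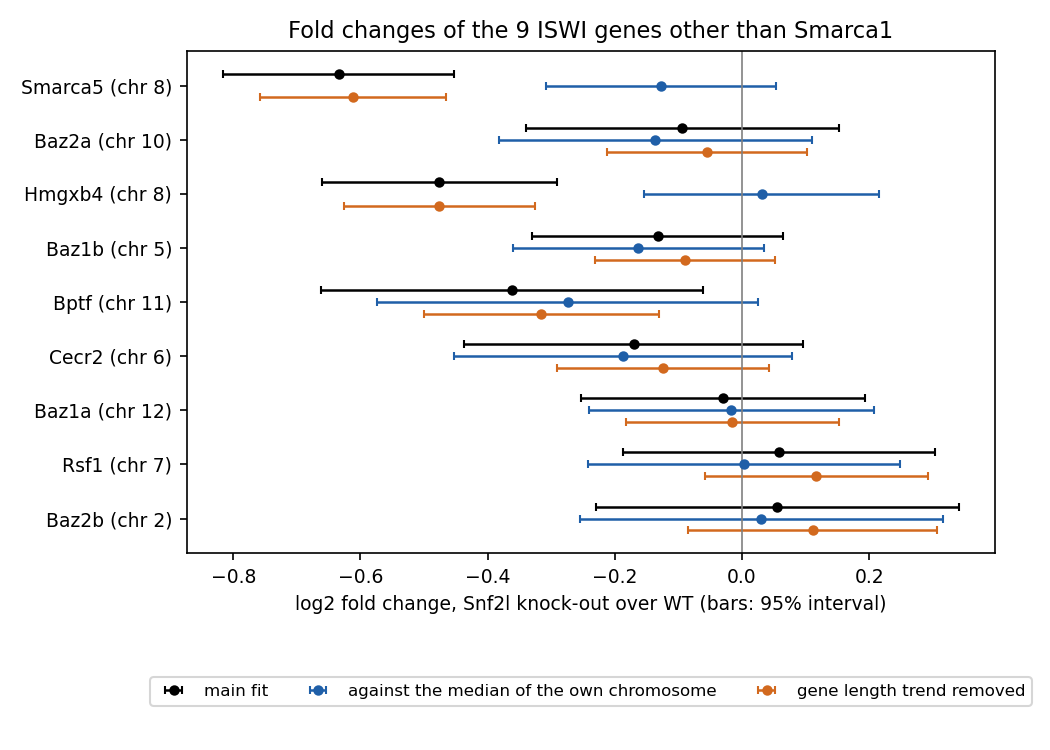
Log2 fold changes (Snf2l knock-out over WT) with 95% intervals for the 9 ISWI genes other than Smarca1, from the main model (black), against the median of each gene's own chromosome (blue) and with the trend along gene length removed (orange). Smarca5 and Hmgxb4 move to -0.13 and 0.03 against chromosome 8, and the orange interval of Bptf, -0.50 to -0.13, is narrower than the black.

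Against the median of its own chromosome, no accessory gene passed the test. Bptf was at -0.27 (edgeR adjusted p = 0.329), where the median of 1163 tested chromosome 11 genes was -0.09. The other 6 accessory genes outside chromosome 8 lay on chromosomes with medians between -0.01 and 0.06. Their differences from those medians ranged from -0.19 for Cecr2 to 0.03 for Baz2b.

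The ISWI genes are long, and length moved with a difference between replicates. Gene lengths in the table were between 5227 bp (Hmgxb4) and 16660 bp (Baz2b), with a median of 10762 bp against 4181.5 bp for all tested genes. Replicate 2 was lower than replicate 1 in WT for 9 of the 10 genes and in the knock-out for 8, against 48.7% and 50.5% of all tested genes. Among the 1066 tested genes over 10 kb these shares were 82.8% and 83.9%. Across those genes the median difference of replicate 2 from replicate 1 was -0.17 in WT and -0.23 in the knock-out on the log2 scale, and for the 6 ISWI genes over 10 kb (Bptf, Cecr2, Rsf1, Baz1b, Baz2a and Baz2b) it was -0.25 and -0.35. The largest was that of Bptf in the knock-out, at -0.55. Across all 13840 genes Spearman's rho of the replicate difference with length was -0.37 in WT and -0.43 in the knock-out, a description over genes of the same libraries.

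**Figure D4:**
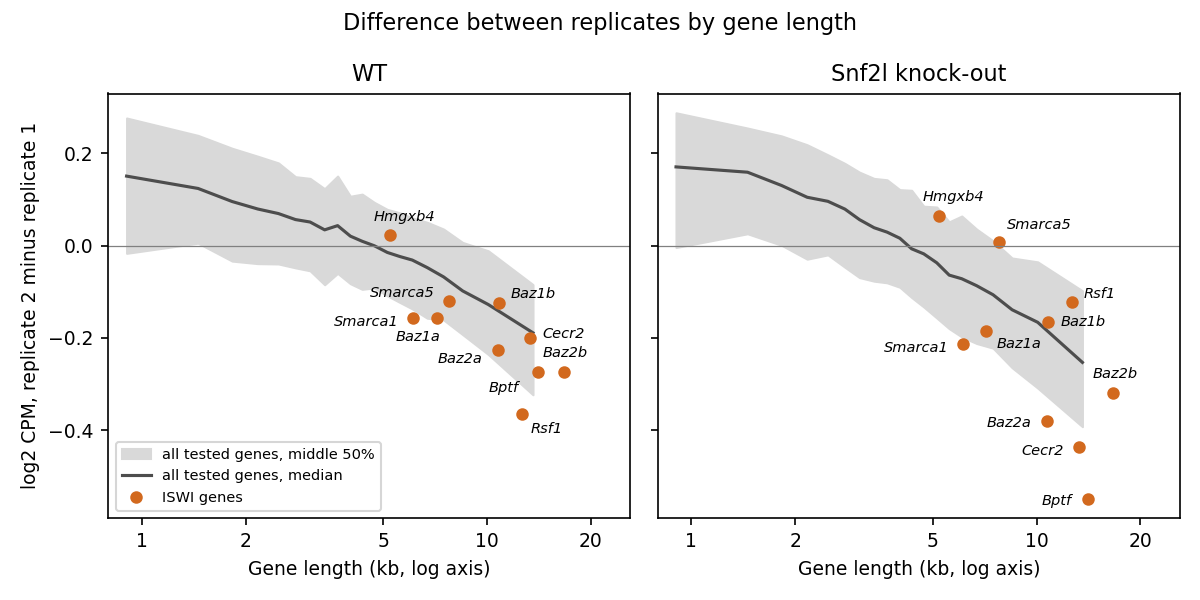
Difference in log2 CPM between replicate 2 and replicate 1 against gene length (kb, log axis) in WT (left) and Snf2l knock-out (right), with the median and middle 50% of tested genes in 20 bins of length (grey) and the 10 ISWI genes (orange). The grey median falls with length in both genotypes, and Bptf in the knock-out is the lowest orange point at -0.55.

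The fold changes between genotypes followed length less closely (Spearman's rho -0.12 over the same genes). The median log2 fold change of genes over 10 kb was -0.06, and that of the 6 long ISWI genes was -0.11. With the smooth trend of each library along gene length entered as an offset, a setting added once the data had been seen, the SE of Bptf fell from 0.141 to 0.0870 and its log2 fold change was -0.32 (edgeR adjusted p = 0.0230), beside 13.9% of all tested genes called in either direction and 8% lower. With only the part of the trend that differs within a genotype removed, Bptf was at -0.37 (edgeR adjusted p = 8.37e-03). This second fit called 14.9% of all tested genes. In both fits Smarca1, Smarca5 and Hmgxb4 were also called lower, and the other 6 genes were not called. Bptf is thus called or not according to how the length trend is treated, and the source of the trend was not tested.

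Other proteins of the ISWI complexes were compared through a list of 12 genes, of which all 12 were tested. Of these, 1 was called lower and 0 higher, beside 5.21% of all tested genes called lower and 4% higher. The median log2 fold change was 0.05 beside 0.00 for all tested genes. The called gene was Mybbp1a, whose product is a nucleolar corepressor found with WSTF and SNF2H in an extended WICH complex. It had 1353 and 1343 CPM in WT and 1143 and 1011 CPM in the knock-out, with both knock-out libraries lower. This was a log2 fold change of -0.32 with an SE of 0.083 (adjusted p = 0.0227 in edgeR). The call was lost when any of 3 libraries was left out, with adjusted p-values of 0.201 without WT replicate 1, 0.155 without WT replicate 2 and 0.0632 without knock-out replicate 2. The NURF histone-binding genes Rbbp4 and Rbbp7 were at 0.10 and 0.12 and the histone-fold genes of CHRAC, Chrac1 and Pole3, at 0.17 and 0.03, with edgeR adjusted p-values between 0.452 and 0.886. Against the median of each gene's own chromosome, 0 of the 12 genes were called, with Mybbp1a on chromosome 11. Over all 13840 tested genes that fit called 186 lower and 393 higher.

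SNF2 ATPases of other remodeler families served for comparison. Of 15 such genes, all tested, 2 were called lower and 0 higher, beside 5.21% of all tested genes called lower and 4% higher. The median log2 fold change of the 15 genes was -0.10. Their median length was 10195 bp, and all tested genes over 10 kb had a median of -0.06. Chd9, which like Smarca5 lies on chromosome 8, had 170 and 134 CPM in WT and 96.5 and 71.1 CPM in the knock-out (-0.86, edgeR adjusted p = 1.03e-03). With the chromosome 8 offset it was at -0.35 and was not called (edgeR adjusted p = 0.177). Chd3, a NuRD-type ATPase gene on chromosome 11, had 43.2 and 38.0 CPM in WT and 30.6 and 24.6 CPM in the knock-out (-0.56, edgeR adjusted p = 9.69e-03). Without WT replicate 1 its adjusted p was 0.0687. Smarca4, the BAF ATPase gene, and Chd4, the main NuRD ATPase gene, were at -0.03 and -0.01.

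**Figure D5:**
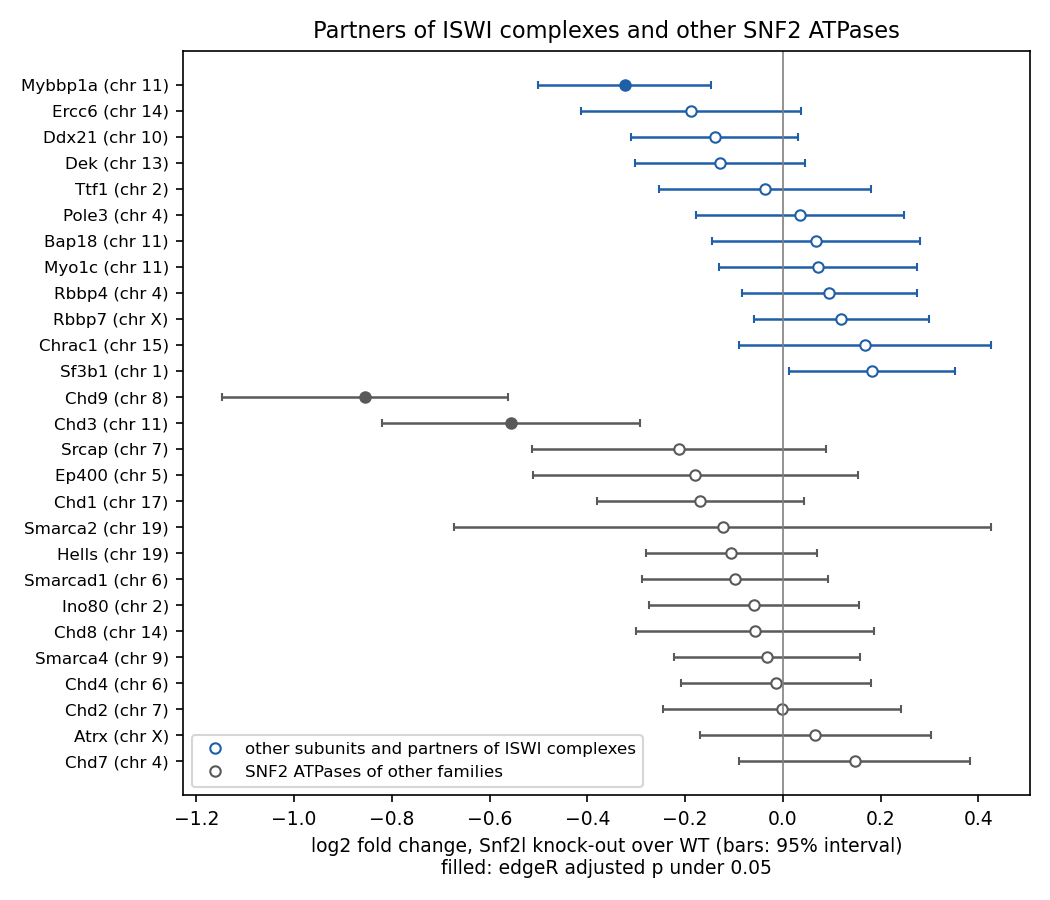
Log2 fold changes (Snf2l knock-out over WT) with 95% intervals for 12 other genes of ISWI complexes (blue) and 15 SNF2 ATPase genes of other families (grey), with filled points for an edgeR adjusted p under 0.05. Filled points are Mybbp1a (-0.32), Chd9 (-0.86) and Chd3 (-0.56), all lower in the knock-out.

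Genes with the pattern nearest to each ATPase were sought by the Euclidean distance between log2 CPM values centred over the 4 libraries, among 13830 tested genes outside the 10. The nearest to Smarca1 were Uty (distance 0.216), Mest (0.406) and Ddx3y (0.613), with log2 fold changes of -4.12, -3.95 and -3.69. Uty and Ddx3y lie on chromosome Y and Mest on chromosome 6, and why they were lower was not tested. The nearest to Smarca5 were Nek3 (0.0314), Prmt9 (0.0450) and Vps36 (0.0520), and all 3 lie on chromosome 8. Outside chromosome 8 the nearest were Slit3 (0.0607), Nlrp14 (0.0627) and Rnase4 (0.0678), of which Slit3 alone was called (edgeR adjusted p = 0.0266). The call of Slit3 was lost with DESeq2 (adjusted p = 0.212) and without WT replicate 1 (0.127), WT replicate 2 (0.0630) or knock-out replicate 2 (0.0539).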

How the data were processed

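Poly(A) RNA libraries of mouse ESCs, 2 WT and 2 Snf2l knock-out, were grouped by their titles. The authors aligned reads to mm10 with QuasR and HISAT2 (bcl2fastq 2.17 in the submitters' processing notes) and counted them over UCSC Known Genes. The deposited values are raw counts per Entrez gene with a gene length. The labels name a stranded library kit and the methods an unstranded one, and the strand setting of the counting is not given in the sources used here. Symbols and positions were matched for 99.9% of genes (RefSeq, GRCm38.p6). For 6 of the 10 genes the deposited length equalled the union of the exons in GENCODE vM21.

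Counts were filtered (filterByExpr, minimum count 10), TMM-scaled and tested with edgeR 4.0.16 in R 4.3.3 (glmQLFit and glmQLFTest, legacy form, two-sided), with Benjamini–Hochberg adjustment over 13840 genes. The test and filter follow the study's methods, whose model also had a batch term. It was left out because the labels name no batch that differs between the libraries, so genotype was the only term. The common biological coefficient of variation was 7.45%. SE and 95% intervals came from the F statistic. SDs or both values are given over 2 libraries. Chromosome medians entered as offsets in the knock-out libraries. The model was tested on simulated data. Alternatives were other scalings, filters, DESeq2 1.42.0, the edgeR 4 fit, robust estimation, a replicate block, each library left out and 2 gene length offsets (lowess span 0.3). No replicate pair agreed within sampling noise (chi-square per degree of freedom 5.17 in WT and 7.35 in the knock-out).

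The genes and lists were chosen with earlier results of these data known. Named genes were all 10, called genes of the lists, and the 3 nearest in pattern to each ATPase, with 3 outside chromosome 8 for Smarca5. Smarca5-ps and Gm13034, and unlisted examples from the lists, were chosen after their values were seen.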

Additional observations from a re-analysis of the deposited data

How the results depend on the processing

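Smarca1, Smarca5 and Hmgxb4 kept their direction and their call under every other scaling, filter and tool, the replicate block and each library left out. The exception was the own-chromosome offset, with Smarca5 at -0.13 and Hmgxb4 at 0.031 and 1 gene called in place of 3, as with the chromosome 8 offset. Replicate numbers were not taken as pairs (correlation of same-numbered deviations 0.196, 2 pairs). With the replicate block 5 genes were called, Bptf (-0.38) and Cecr2 (-0.18) beside the 3, with 4 partner genes and 5 SNF2 ATPase genes, and 25.1% in place of 9.21% of tested genes overall. With the gene length smooth 2 partner genes were called, Mybbp1a lower and Sf3b1 higher (0.21, edgeR adjusted p = 0.0451), beside 13.9% of all tested genes. Leaving out a library gave 3 to 6 called ISWI genes (6 without knock-out replicate 1), 0 to 1 partner genes and 1 to 4 SNF2 ATPase genes, where 13.7% of all tested genes were called without knock-out replicate 1 and 5.85% to 9.31% without another library. The ratio of Smarca5 to Smarca1 in WT was 8.71, from 8.60 to 8.82 with a library left out, and 11.1 without gene length. Without length 6 genes changed rank in WT, and with transcript length 2.

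Some values that were not called in the main model changed sign in other settings. With upper-quartile scaling this held for Baz1a (0.00084). With a library left out it held for Baz1a (-0.12 to 0.061), Baz2a (-0.29 to 0.084), Rsf1 (-0.12 to 0.25), Baz2b (-0.11 to 0.21), Cecr2 (-0.40 to 0.032) and Hmgxb4 against chromosome 8 (-0.0018 to 0.046). The cause was not tested. A fit with 1 library in a genotype assumes that it varies like the other genotype.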
